A study of Mus musculus with 18 samples.

Results

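The genes described here carry glucose and lactate into, through and out of the retinal pigment epithelium (RPE), a pigmented sheet of cells between the photoreceptors and the blood vessels of the choroid. They were chosen by symbol from a table of 21859 genes: the glucose transporter Slc2a1, the monocarboxylate transporter genes Slc16a1, Slc16a3, Slc16a8 and Slc16a12, the sodium-coupled monocarboxylate transporter Slc5a8, the transporter chaperone Bsg and the lactate dehydrogenase subunit Ldhb. All 8 were in the table, and all 8 were among the 15944 genes that passed the filter on low counts. RNA of mouse RPE was sequenced in 18 libraries: Young (young mice with no vector named, 7 libraries), Old (aged mice with no vector named, 4 libraries), Old-Control (aged mice given AAV2-tTA, 3 libraries) and Old-OSK (aged mice that received AAV2-tTA and TRE-OSK, 4 libraries). The vector, AAV2, derives from adeno-associated virus. Its tTA cargo is a transactivator that drives genes placed behind the TRE promoter, and OSK stands for the reprogramming factors Oct4, Sox2 and Klf4. Both vector groups therefore carried tTA, and the OSK genes were given to Old-OSK alone. The labels used here give no age, vector dose, time after treatment or share of RPE cells that took up vector, and they do not say whether libraries came from separate mice, so p-values measure the spread between these libraries only.

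As background, photoreceptors draw their glucose from the choroid through the RPE, where GLUT1, the protein of Slc2a1, lets it cross the cell by facilitated diffusion. Photoreceptors turn much of this glucose into lactate. The RPE takes lactate up on the photoreceptor side through MCT1, the protein of Slc16a1, and releases it towards the choroid through MCT3, the protein of Slc16a8, which in the eye is found on the basolateral membrane of the RPE. Basigin, the protein of Bsg, accompanies both transporters to the membrane. MCT4 (Slc16a3) exports lactate from glycolytic cells, MCT12 (Slc16a12) carries creatine rather than lactate, and SMCT1 (Slc5a8) couples the uptake of lactate and other monocarboxylates to sodium. LDHB is the subunit of lactate dehydrogenase that is usual in tissues that oxidise lactate, and LDHA the one usual in tissues that make it.

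Library totals lay between 18104828 and 32348136 counts. The members fell into an abundant set (Bsg, Slc2a1, Slc16a8, Slc16a1 and Ldhb, with at least 6912 counts in each library) and a scarce set (Slc16a3, Slc16a12 and Slc5a8, with counts down to 44, 24 and 20). RPE markers were abundant: the 12 listed, led by Rgr and Ttr, summed to between 45757 and 68699 CPM (read counts relative to library size, scaled by TMM) in Young. Best1, a defining RPE gene, averaged 1.47 CPM over the libraries. Rod markers were present in every library, from 156.4 CPM summed over 10 genes in Young replicate 5 to 19656 in Old-Control replicate 2. They spanned 156.4 to 3107.2 CPM in Young, 2136.5 to 7709.3 in Old, 1627.1 to 19656 in Old-Control and 2915.5 to 16421 in Old-OSK. Old replicate 4 and Old-Control replicate 2 stood apart from their groups: on the first principal component (46.5% of the variance) they scored 73.2 and 61.8, within the 45.7 to 96 of Old-OSK, with scores from -36.4 to 21.8 for the rest of Old and Old-Control. The members' fold changes below are also given without them where they moved most. In whole tissue, fewer cells of a type cannot be told apart from less RNA per cell.

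Upstream sequences are shown for Slc2a1, Slc16a1 and Slc16a8 because these transporters carry glucose and lactate through the RPE and had the same lowest library in every group, as described below. They are the 250 bases before the start annotated in RefSeq on GRCm38.p6, written 5′ to 3′ on the gene's own strand. They lie at chr4:119108495-119108744 (plus strand), chr3:104638414-104638663 (plus strand) and chr15:79254749-79254998 (minus strand). Gene coordinates given below are from GENCODE M21, by which the Slc2a1 and Slc16a8 windows reach past the start of the gene. Capitals mark CACGTG, an E-box, or ACGTG, the core of the hypoxia response element, which overlaps it.
Slc2a1: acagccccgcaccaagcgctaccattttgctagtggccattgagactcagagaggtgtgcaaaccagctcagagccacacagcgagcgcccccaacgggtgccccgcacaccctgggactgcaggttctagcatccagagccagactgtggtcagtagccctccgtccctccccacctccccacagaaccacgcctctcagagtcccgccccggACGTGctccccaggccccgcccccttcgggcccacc
Slc16a1: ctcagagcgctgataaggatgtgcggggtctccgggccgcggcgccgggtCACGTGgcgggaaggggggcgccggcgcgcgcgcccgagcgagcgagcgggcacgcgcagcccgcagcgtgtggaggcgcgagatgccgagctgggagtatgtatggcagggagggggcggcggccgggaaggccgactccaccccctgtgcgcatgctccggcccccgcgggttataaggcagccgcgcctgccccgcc
Slc16a8: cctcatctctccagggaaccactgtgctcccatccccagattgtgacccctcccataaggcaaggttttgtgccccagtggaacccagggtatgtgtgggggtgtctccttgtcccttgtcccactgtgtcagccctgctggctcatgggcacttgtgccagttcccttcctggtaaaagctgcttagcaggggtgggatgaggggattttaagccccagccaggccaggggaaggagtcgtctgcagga

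The Slc16a1 window held an E-box CACGTG and the Slc2a1 window ACGTG alone, while the Slc16a8 window held neither. Searched on both strands, CACGTG was present in 6.02% and ACGTG in 16.6% of 32817 windows of the same length. The other motifs searched, CATGTG and TAATCC, were in none of the 7 windows found for the members (12.3% and 6.25% of all windows). Of the other members, Slc16a12 held CACGTG and Slc16a3 held ACGTG at 2 places, and Slc5a8 and Ldhb held neither. No window was found for Bsg. The windows of Slc16a1 (76.4% GC) and Slc2a1 (66.4%) were richer in GC than that of Slc16a8 (58.8%), against a median of 52.4% over all windows. These windows were chosen after the values had been seen, and a match says only that the letters are there.

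Levels of different genes were compared per kilobase of merged exons, with exon models from GENCODE M21. In Young, Bsg was highest at 2182 ± 315 CPM per kilobase (SD, n = 7), followed by Slc16a8 at 938.3 ± 202, Slc2a1 at 749.2 ± 71, Ldhb at 377.1 ± 41.8 and Slc16a1 at 290.9 ± 57.4. The scarce members stood at 3.74 (Slc16a12), 1.771 (Slc5a8) and 0.6492 (Slc16a3) CPM per kilobase. The order of the abundant members was the same with the longest coding transcript as the length. In Old-OSK, Slc2a1 (405.1 ± 77.5 CPM per kilobase, n = 4) was above Slc16a8 (333.7 ± 98.2), by less than their SDs. Slc5a8 was above Slc16a12 in Old-OSK (9.808 ± 5.02 and 3.653 ± 0.954) and also in Old (5.539 ± 4.51 and 2.999 ± 1.3). It was below Slc16a12 in Young (1.771 ± 1.68 and 3.74 ± 2.71) and in Old-Control. The gaps in Young and Old were smaller than the larger SD.

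**Figure D1:**
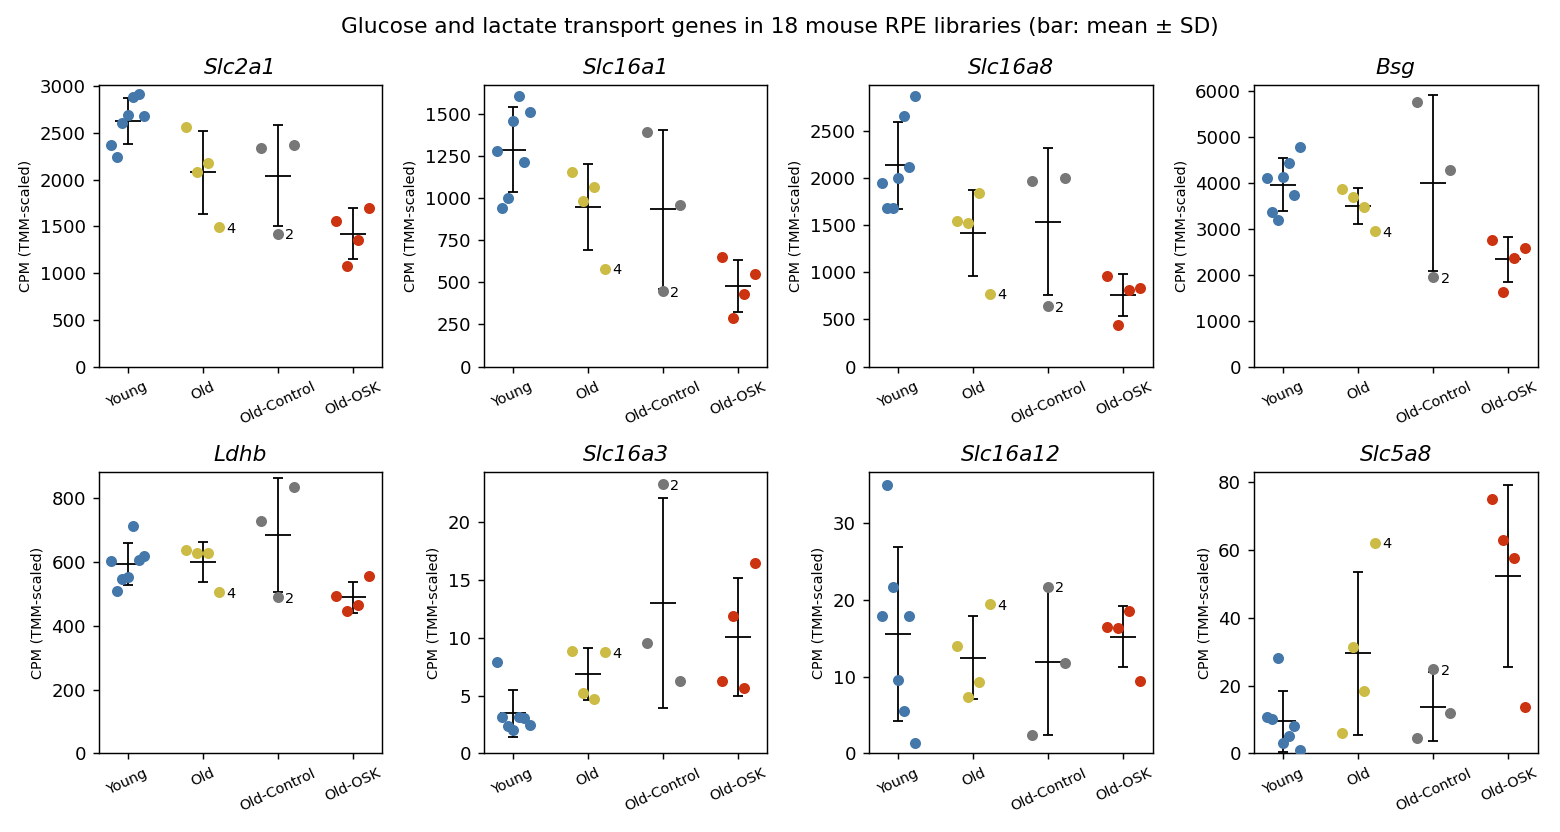
CPM of the 8 genes (y axis, TMM-scaled) in each of the 18 libraries, by group (x axis), with the group mean ± SD as a bar. Old replicate 4 and Old-Control replicate 2 are numbered: they lie at the bottom of their groups for Slc2a1, Slc16a1, Slc16a8, Bsg and Ldhb, and the 4 Old-OSK libraries lie below all Young libraries for the first 4 of these.

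Slc2a1, on chromosome 4 (119108711 to 119137983, plus strand, GRCm38), had its highest levels in Young, with a lowest, median and highest library of 2244, 2674 and 2919 CPM. Old libraries 1 to 4 had 2559, 2081, 2174 and 1489 CPM. The 3 Old-Control libraries had 2339, 1422 and 2366 CPM, and the 4 Old-OSK libraries 1562, 1071, 1353 and 1694 CPM. Every Old-OSK library was thus below every Young library, as also for Slc16a1, Slc16a8 and Bsg, or 4 of 8 members beside 15.6% of all genes, while neighbouring groups in the order Young, Old, Old-Control and Old-OSK overlapped. 105 bases of its exons overlap an exon of Gm12868 on the other strand. The library kit does not mark strand, so reads in these bases cannot be told apart by strand.

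Slc16a8, on chromosome 15 (79251014 to 79254761, minus strand), ranged from 1680 to 2865 CPM in Young with a median of 1998. Old libraries had 1544, 1525, 1840 and 772.8 CPM, Old-Control libraries 1971, 638.2 and 2004 CPM, and Old-OSK libraries 960.7, 440, 807.5 and 829.4 CPM. The 4 Old-OSK libraries, Old replicate 4 and Old-Control replicate 2 were the only 6 of 18 libraries under 1000 CPM.

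Slc16a1, on chromosome 3 (104638668 to 104658462, plus strand), had the same 6 libraries at its low end. It had 940.4 CPM in the lowest, 1281 in the median and 1605 in the highest Young library, and 1156, 980.4, 1067 and 582 CPM in Old. Old-Control libraries had 1391, 448.1 and 961.6 CPM, and Old-OSK libraries 648.7, 287.3, 432.1 and 550.5 CPM. Slc16a8 and Slc16a1, which act on opposite faces of the RPE, kept nearly the same mean proportion in all groups, while single libraries varied more. Per length, Slc16a8 made up 76.2% ± 2.0 of the sum of Slc16a1, Slc16a3 and Slc16a8 in Young (SD, n = 7), 74.0% ± 2.5 in Old (n = 4), 75.3% ± 4.2 in Old-Control (n = 3) and 75.2% ± 2.1 in Old-OSK (n = 4), with single libraries from 71.8% to 80.1%.

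Bsg, on chromosome 10 (79704491 to 79711969, plus strand), had 3184, 4100 and 4778 CPM in the lowest, median and highest Young library and 3857, 3699, 3462 and 2943 CPM in Old. Old-Control spread widest, with 5747, 1942 and 4284 CPM. Old-OSK libraries had 2761, 1627, 2372 and 2571 CPM, below every Young and every Old library. Bsg was the only member for which the libraries of Old-OSK and Old did not overlap, which held for 8.15% of all genes tested. Embigin (Emb), another chaperone of these transporters, was far lower in CPM, at 35.6 ± 21.3 in Young, 45.7 ± 23.5 in Old, 40.0 ± 28.4 in Old-Control and 66.2 ± 14.8 in Old-OSK, and passed in no comparison.

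Ldhb, on chromosome 6 (142490249 to 142507957, minus strand), varied least of the 8, by 0.91 on the log2 scale between its lowest and highest library. It stood at 592.1 ± 65.6 CPM in Young (SD, n = 7) and 598.5 ± 62.8 CPM in Old (n = 4). Old-Control libraries had 726.4, 488.2 and 835.3 CPM and Old-OSK libraries 491.7, 444.7, 463.4 and 555.1 CPM. Ldha, its partner subunit, had 181 to 243 CPM in Young (217 ± 24.2) and 304, 284, 236 and 466 CPM in Old. Its Old-Control libraries had 233, 741 and 258 CPM and its Old-OSK libraries 516, 590, 468 and 496 CPM, so that Old-Control replicate 2 was the highest library of all and the other Old-Control libraries were below all Old-OSK ones. Per length, Ldhb made up 85.0% ± 2.5 of the sum of Ldha and Ldhb in Young, with libraries from 82.5% to 88.7%. The Old libraries had 81.5%, 82.3%, 84.8% and 69.5%, and the Old-OSK libraries 66.8%, 61.4%, 67.6% and 70.2%. In Old-Control the share was 86.8%, 58.1% and 87.2%, so that replicate 2 lay below all Old-OSK libraries and the other Old-Control libraries lay among the Young ones. These shares are given as values with no test, and reads of Ldha may be shared with its pseudogenes. They also depend on the length used, and are lower for Ldhb with the longest coding transcripts. Ldhb and Ldha then averaged 454.1 and 119.8 CPM per kilobase in Young and 374.8 and 285.0 in Old-OSK. Neither subunit passed in a comparison of groups in the edgeR fit over all libraries.

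**Figure D2:**
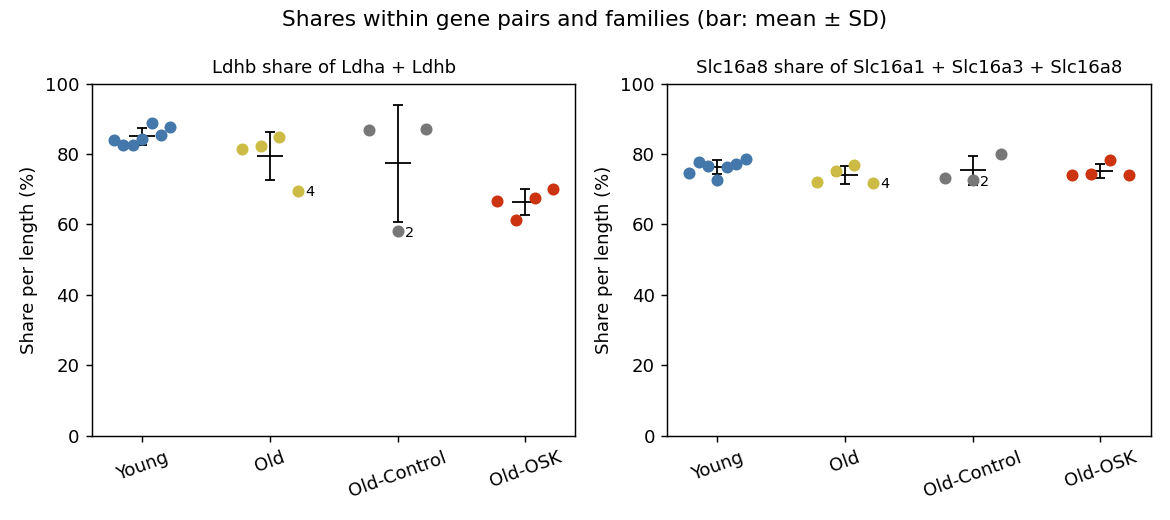
Share per length in percent (y axis) of Ldhb in the sum of Ldha and Ldhb (left) and of Slc16a8 in the sum of Slc16a1, Slc16a3 and Slc16a8 (right), 1 point per library by group (x axis), with mean ± SD as a bar. The Ldhb share runs from 82.5% to 88.7% in Young and from 61.4% to 70.2% in Old-OSK, while the Slc16a8 share stays between 71.8% and 80.1% in all 18 libraries.

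The scarce members had another pattern. Slc5a8, on chromosome 10 (88885992 to 88929515, plus strand), had the widest range of all 8, 5.96 on the log2 scale. It had 1.125, 8.095 and 28.09 CPM in the lowest, median and highest Young library, and 6.13, 31.46, 18.47 and 62.04 CPM in Old. Old-Control libraries had 4.622, 24.73 and 11.94 CPM, and Old-OSK libraries 74.98, 62.98, 57.54 and 13.65 CPM. Old-OSK replicate 4 thus lay among the Young and Old-Control libraries, apart from the other 3 Old-OSK libraries. The genes whose pattern was most like that of Slc5a8, among 10232 genes whose log2 CPM averaged 3 or more, were Scel, Cpm and Ifitm1. Likeness was the root mean square difference of log2 CPM, centred on each gene's mean, over the 18 libraries, and it was 0.215, 0.226 and 0.226 for these genes against a median of 1.65 over all genes compared. Scel, which encodes sciellin, a protein of the cornified envelope of stratified epithelia, had 73.3 CPM in Old-OSK replicate 4 and 318 to 449 CPM in the other Old-OSK libraries.

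Slc16a3, on chromosome 11 (120948480 to 120960868, plus strand), had 2.02, 3.098 and 7.905 CPM in the lowest, median and highest Young library. Old libraries had 8.86, 5.174, 4.696 and 8.727 CPM, Old-Control libraries 9.499, 23.24 and 6.23 CPM, and Old-OSK libraries 6.293, 11.85, 5.662 and 16.41 CPM. Except for Young replicate 1, every Young library was below every library of the aged mice. The highest levels were in Old-Control replicate 2 and Old-OSK replicate 4, which also had the highest rod marker sums, 19656 and 16421 CPM. Slc16a12, on chromosome 19 (34668403 to 34747289, minus strand), showed no order of groups beyond its spread. It stood at 15.59 ± 11.3 CPM in Young, 12.51 ± 5.41 in Old, 11.99 ± 9.63 in Old-Control and 15.23 ± 3.98 in Old-OSK, and its Young libraries alone spanned 1.35 to 35.07 CPM. Scaled by library totals without TMM, its highest mean was in Old-OSK rather than Young.

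Old was compared with Young for the difference with age in RPE of mice with no vector named. Slc2a1, Slc16a1 and Slc16a8 had lower means in Old and Slc16a3 and Slc5a8 higher ones, but no member passed the test over all genes (edgeR's quasi-likelihood test, adjusted p under 0.05), beside 9.56% of all genes tested. The log2 fold change was -0.59 for Slc16a8 (SE 0.30, edgeR adjusted p = 0.213), -0.44 for Slc16a1 (SE 0.28, adjusted p = 0.309) and -0.34 for Slc2a1 (SE 0.17, adjusted p = 0.209). Bsg (-0.18, SE 0.23) and Ldhb (0.02, SE 0.13) were closer to 0, and Slc16a12 had -0.32 (SE 0.62). The largest positive values were those of Slc5a8 (1.64, SE 0.69, edgeR adjusted p = 0.128) and Slc16a3 (0.98, SE 0.41, adjusted p = 0.126). These were also the only members with an unadjusted p under 0.05, 2 of 8, beside 29.0% of all genes. DESeq2 called none, beside 15.4% of all genes. The median log2 fold change of the members was -0.25, against -0.00437 over all genes tested.

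The age values of the scarce members depended on single libraries. Without Young replicate 1, which had 7.905 CPM of Slc16a3, that gene passed (log2 fold change 1.34, SE 0.36, edgeR adjusted p = 0.0418; 6.13% of genes called). Without Young replicate 3, Slc5a8 passed (2.21, SE 0.65, edgeR adjusted p = 0.0383; 12.4% of genes called). When each library of the comparison was left out in turn, the adjusted p of Slc16a3 lay between 0.0418 and 0.357 and that of Slc5a8 between 0.0383 and 0.515. Without Old replicate 4, Slc5a8 was at 0.98 (SE 0.73, edgeR adjusted p = 0.515) and Slc16a3 at 0.85 (SE 0.46, adjusted p = 0.357). Slc16a12, Bsg and Ldhb were then at -0.62, -0.11 and 0.09. Rod markers had positive log2 fold changes in Old in 10 of 10 genes, with a median log2 fold change of 1.4 and none passing. With the rod score (the mean log2 CPM of the rod markers) as a covariate the log2 fold change of Slc16a3 was 0.38 (SE 0.41, edgeR adjusted p = 0.644) and that of Slc16a8 was -0.33 (SE 0.31, adjusted p = 0.579). Without Old replicate 4 the log2 fold changes of Slc16a8, Slc16a1 and Slc2a1 were -0.38, -0.27 and -0.21, against -0.59, -0.44 and -0.34 with it. Some library names carry a letter M that the labels do not explain, and a split by it was tried after seeing the data. Within the libraries without M (4 Young, 4 Old) the values were -0.36, -0.31 and -0.26.

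Old-OSK was compared with Old-Control for the difference after OSK in aged mice given vector. The abundant members had lower means in Old-OSK by 0.48 to 1.02 on the log2 scale, and Slc5a8 a higher one, but no member passed (0.728% of all genes did). The log2 fold changes were -1.02 for Slc16a8 (SE 0.36, edgeR adjusted p = 0.108), -0.96 for Slc16a1 (SE 0.33, adjusted p = 0.104), -0.77 for Bsg (SE 0.28, adjusted p = 0.108), -0.52 for Slc2a1 (SE 0.21, adjusted p = 0.135) and -0.48 for Ldhb (SE 0.16, adjusted p = 0.0952). These 5 had an unadjusted p under 0.05, beside 26.3% of all genes. Slc5a8 had 1.92 (SE 0.91, edgeR adjusted p = 0.192), and Slc16a3 (-0.37, SE 0.50) and Slc16a12 (0.34, SE 0.75) lay within their errors. The median log2 fold change of the members was -0.50, against -0.0278 over all genes. DESeq2 called none, beside 9.72% of all genes, with adjusted p between 0.0558 and 0.102 for the 5 abundant members. With same-numbered libraries treated as pairs (a replicate block) none passed either (3.02% of genes called), with edgeR adjusted p of 0.0621 for Slc16a1, 0.0886 for Slc16a8 and 0.0613 for Slc5a8.

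The outcome turned on which Old-Control library was left out. Without replicate 1, which had the highest Slc16a1 and Bsg of the group, the log2 fold changes of the 5 abundant members were closer to 0: -0.56 for Slc16a1 (edgeR adjusted p = 0.463), -0.42 for Bsg (adjusted p = 0.489), -0.80 for Slc16a8 (adjusted p = 0.398), -0.41 for Slc2a1 (adjusted p = 0.429) and -0.44 for Ldhb (adjusted p = 0.359). Without replicate 3, which had the highest Ldhb, they lay between -0.94 (Slc16a1) and -0.31 (Ldhb, edgeR adjusted p = 0.307). Without replicate 2, one of the libraries that stood apart, the 5 abundant members were called lower in Old-OSK, beside 17.9% of all genes called and 11.6% called lower. The log2 fold changes were then -1.41 for Slc16a8 (SE 0.32, edgeR adjusted p = 0.0107), -1.31 for Slc16a1 (SE 0.31, adjusted p = 0.013), -1.13 for Bsg (SE 0.22, adjusted p = 0.00632), -0.75 for Slc2a1 (SE 0.21, adjusted p = 0.0261) and -0.70 for Ldhb (SE 0.14, adjusted p = 0.00726). Slc16a3, whose highest level was in that library, then had a positive value, 0.33 (SE 0.53), and Slc5a8 and Slc16a12 had 2.62 (SE 1.09, edgeR adjusted p = 0.096) and 1.06 (SE 0.86). Without Old-OSK replicate 4, Ldhb was the only member to pass (-0.59, SE 0.17, edgeR adjusted p = 0.0435; 11.0% of genes called). In the 4 libraries without M (1 Old-Control, 3 Old-OSK), Slc16a1 (-1.61, edgeR adjusted p = 0.0435), Bsg (-1.35, adjusted p = 0.028) and Ldhb (-0.64, adjusted p = 0.0428) were called lower and Slc16a12 (2.80, adjusted p = 0.0469) higher, beside 8.2% of all genes. In the 3 with M (2 Old-Control, 1 Old-OSK), none was called, and Slc16a1 had -0.34 and Bsg -0.26. The lone library is assumed in these fits to vary like the other groups.

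**Figure D3:**
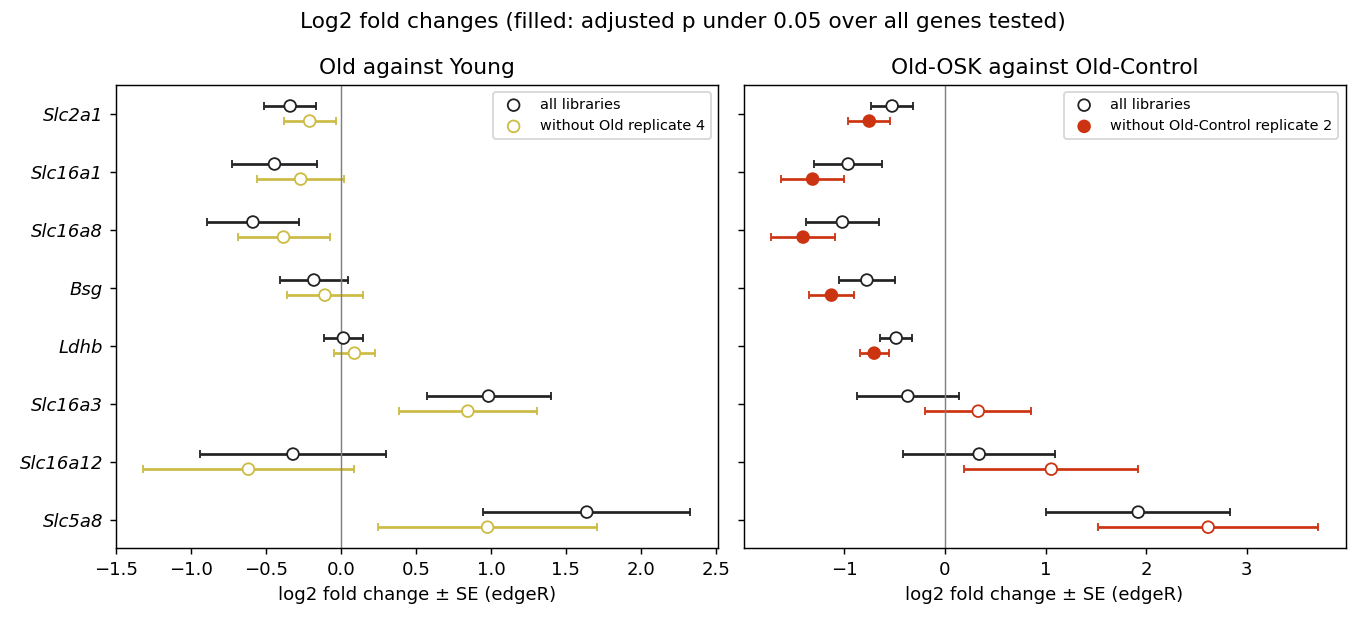
Log2 fold change ± SE (x axis) of each member (y axis) in Old against Young (left) and Old-OSK against Old-Control (right), over all libraries (black) and without the library that stood apart (coloured), with filled points for an adjusted p under 0.05. No black point is filled, and on the right the 5 abundant members are filled at values from -1.41 to -0.70 without Old-Control replicate 2.

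Old served as another reference for Old-OSK, although it lacks the vector as well as OSK. The values of the abundant members were again negative and none passed (0.84% of all genes did). On the log2 scale Slc16a1 differed by -0.98 (SE 0.31, edgeR adjusted p = 0.153), Slc16a8 by -0.90 (SE 0.34, adjusted p = 0.211), Bsg by -0.58 (SE 0.26, adjusted p = 0.287), Slc2a1 by -0.55 (SE 0.20, adjusted p = 0.192) and Ldhb by -0.29 (SE 0.15, adjusted p = 0.359). 4 of 8 had an unadjusted p under 0.05, beside 15.7% of all genes, and DESeq2 called none (2.8% of all genes). Without Old replicate 4, Slc16a1 (-1.15, SE 0.32, edgeR adjusted p = 0.0404) and Slc2a1 (-0.68, SE 0.19, adjusted p = 0.0448) were called lower, beside 6.57% of all genes called and 3.62% called lower. With both Old replicate 4 and Old-Control replicate 2 left out, a choice made after seeing the data, the 5 abundant members were called lower against Old and against Old-Control. Of all genes, 13.9% were then called against Old (9.3% lower) and 23.3% against Old-Control (14% lower). This comparison shares the Old-OSK libraries with the one against Old-Control and the Old libraries with the one against Young, so their values are not independent. Between Old-Control and Old no member was called, 0 had an unadjusted p under 0.05 by edgeR (3.74% of all genes) and DESeq2 called 0, beside 0.0% of all genes called by either. Slc5a8 had -1.10 (SE 0.89) and Slc16a3 0.92 (SE 0.50), and which of them was further from 0 depended on single libraries. Slc5a8 was at -0.44 without Old replicate 4 and at -1.81 without Old-Control replicate 2, where Slc16a3 was at 1.06 and 0.20, and Slc5a8 was at -0.09 with M as a covariate. Slc2a1 (-0.02, SE 0.21) and Slc16a1 (-0.02, SE 0.34) were nearest 0 over all libraries.

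In each group the same library was the lowest for Slc2a1, Slc16a1 and Slc16a8: Young replicate 2, Old replicate 4, Old-Control replicate 2 and Old-OSK replicate 2. Ldhb shared all 4 of these and Bsg all but the Young one. Old replicate 4, Old-Control replicate 2 and Old-OSK replicate 2 also had the lowest summed RPE markers of their groups, 30180, 23452 and 18347 CPM, against 48485 to 50599 CPM in the other Old, 55886 and 63814 in the other Old-Control and 25448 to 32364 CPM in the other Old-OSK libraries. Set against that sum, the differences between Young and Old-OSK were smaller for Slc16a1 and Slc16a8 and turned for Slc2a1, Bsg and Ldhb. Per 1000 CPM of the RPE list, Slc16a1 stood at 22.6 ± 1.31 CPM in Young (SD, n = 7), 21.0 ± 1.59 in Old (n = 4), 19.4 ± 2.3 in Old-Control (n = 3) and 17.8 ± 1.89 in Old-OSK (n = 4). Slc16a8 stood at 37.6 ± 3.67, 31.3 ± 4.9, 31.3 ± 4.34 and 28.3 ± 3.3 in the same order, and Slc2a1 at 47.1 ± 6.32, 46.8 ± 3.73, 46.5 ± 12.5 and 54.1 ± 4.48. Slc16a1 and Slc16a8 stayed lower in every Old-OSK library than in every Young library on this scale, by a narrow margin for Slc16a1. For Slc2a1 the Young libraries (41.4 to 57.0) overlapped those of Old-OSK (48.3 to 58.4). Bsg and Ldhb were higher per RPE marker in Old-OSK than in Young, at 88.3 ± 3.57 against 70.1 ± 3.16 and at 19.1 ± 3.77 against 10.6 ± 0.943, without overlap. The list sum rests on Rgr and Ttr, which made up 30.6% each, and these ratios are values with no test. The share of all genes without overlap on this scale was not counted. With the mean of log2 CPM over the 12 markers as the reference, Slc16a1 lay 0.03 ± 0.21 above it in Young and at -0.51 ± 0.32 in Old-OSK, and Slc2a1 at 1.08 ± 0.15 and 1.10 ± 0.10 above it. The Young and Old-OSK libraries overlapped for both genes. Slc16a8 lay at 0.76 ± 0.26 in Young (0.53 to 1.21) and at 0.16 ± 0.30 in Old-OSK (-0.258 to 0.436), without overlap. On that reference Bsg overlapped, at 1.66 ± 0.15 in Young (1.5 to 1.95) and 1.81 ± 0.14 in Old-OSK (1.63 to 1.96). Ldhb, at -1.07 ± 0.12 and -0.42 ± 0.14, did not overlap. The share of all genes apart on that reference was not counted either.

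Of the 12 RPE markers, 8 had negative log2 fold changes in Old-OSK against Old-Control, with a median of -0.76 and none passing, and 11 in Old against Young, with a median of -0.35 and 2 called lower. Rod markers moved with these genes in some libraries and not in others. Old-Control replicate 2 had the highest rod sum of all libraries (19656 CPM) and the lowest Slc16a1 and Slc16a8 of its group, and Old-OSK replicate 2 (8115.4 CPM) and Old replicate 4 (5406.2 CPM), each second in rod sum in its group, were likewise lowest in these genes. Old-OSK replicates 1 and 3, with low Slc16a1 and Slc16a8, had rod sums of 2915.5 and 3018.0 CPM, within the 156.4 to 3107.2 of Young, and Old replicate 1, with the highest rod sum of its group (7709.3 CPM), had the highest Slc16a1 of that group. With the rod score as a covariate the log2 fold changes in Old-OSK against Old-Control were -0.90 for Slc16a1 (SE 0.33, edgeR adjusted p = 0.12) and -0.90 for Slc16a8 (SE 0.34, adjusted p = 0.124). Immune markers, 6 of 8 of them called higher in Old than in Young, summed to between 488.4 and 679.4 CPM in Young and between 714.7 and 1201 CPM in Old. Among the lists for cones, Müller glia, endothelium, stroma, red blood cells and choroidal melanocytes, 1 stromal and 1 melanocyte marker were called lower in Old than in Young and none passed in the other comparisons. What part such cells have in the members' values was not tested.

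**Figure D4:**
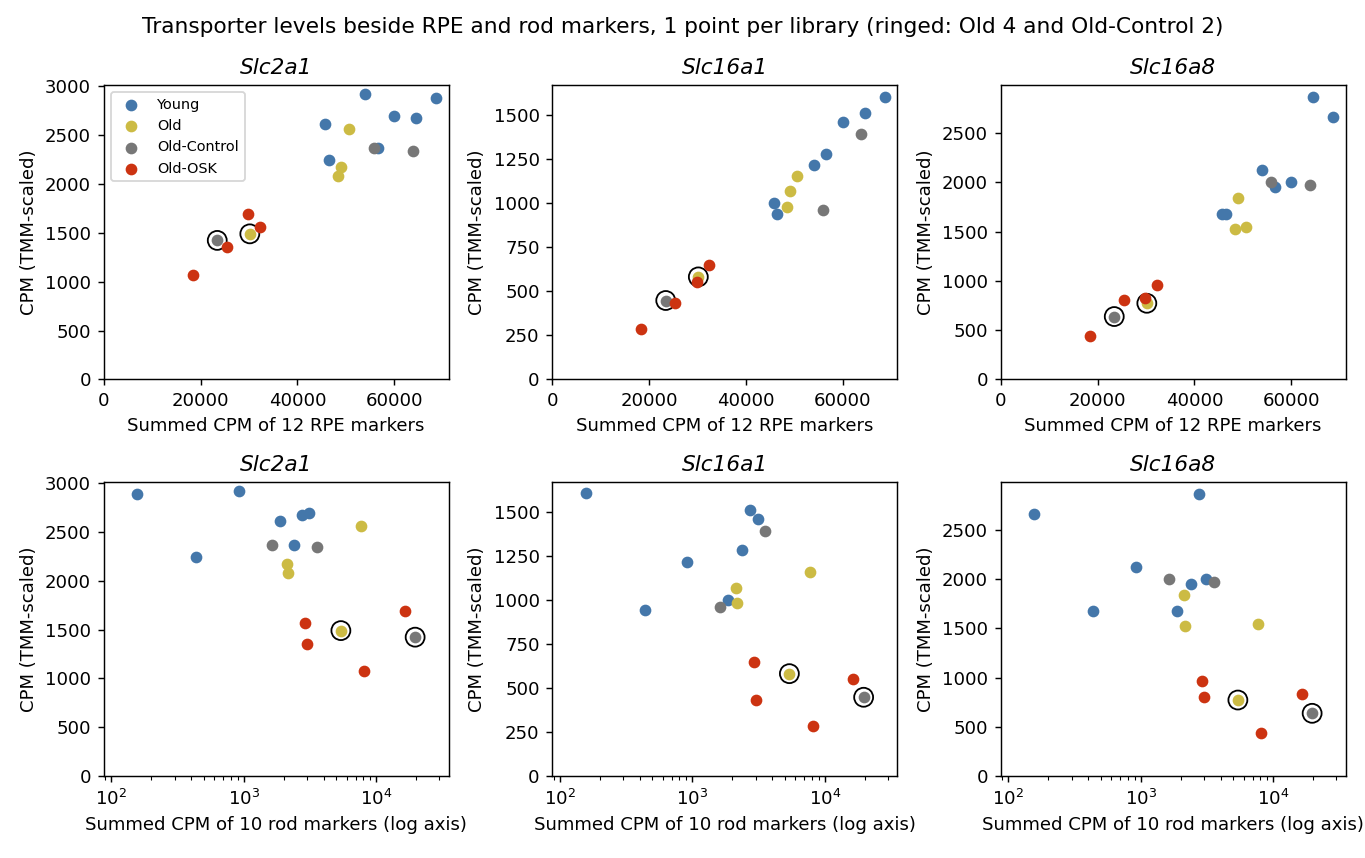
CPM of Slc2a1, Slc16a1 and Slc16a8 (y axes) against the summed CPM of 12 RPE markers (top, x axis) and of 10 rod markers (bottom, log x axis), 1 point per library coloured by group. The 4 Old-OSK libraries and the ringed Old replicate 4 and Old-Control replicate 2 sit at the low end of the RPE axis, at 32364 CPM or less, while on the rod axis Old-OSK libraries extend from 2915.5 to 16421 CPM.

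The wider pathway was read from a list of 57 other genes for glucose and monocarboxylate transport, lactate dehydrogenases, hexokinases and the entry of pyruvate into mitochondria, of which 49 were tested. In Old against Young, 5 were called higher and 3 lower, beside 5.4% and 4.16% of all genes, and their median log2 fold change was -0.01. The lowest p belonged to Slc16a4, a member of the monocarboxylate transporter family, which stood at 33.2 ± 2.99 CPM in Young and fell to 17.9 ± 3.52 CPM with age (log2 fold change -0.89, SE 0.12, edgeR adjusted p = 0.000308). Its Old libraries were below all Young ones, beside 5.61% of all genes. Its level was 17.4 ± 0.885 CPM in Old-Control and 18.4 ± 1.31 CPM in Old-OSK. Hk3, a hexokinase best known from white blood cells, rose from 0.262 ± 0.204 to 1.66 ± 0.328 CPM (2.58, SE 0.50, edgeR adjusted p = 0.00586). Dlat, the acetyltransferase of pyruvate dehydrogenase, fell from 86.7 ± 3.84 to 73.2 ± 3.6 CPM (-0.24, SE 0.06, edgeR adjusted p = 0.019).

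These calls depended on the libraries. Without Old replicate 4 only Slc16a4 (-0.77, edgeR adjusted p = 0.000604) and Hk3 (2.59, adjusted p = 0.0203) passed, 1 of 49 lower and 1 higher, beside 1.01% and 1.47% of all genes, and Dlat was at -0.22 (adjusted p = 0.0793). Without Old replicate 2, 2 were called higher and 2 lower, beside 2.26% and 1.59% of all genes.

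The other 5 called genes, named after their values had been seen, were transporters. Slc16a11 (2.18), Slc5a9 (1.91), Slc2a6 (1.57) and Slc2a9 (1.20) rose with age on the log2 scale and Slc2a12 (-0.81) fell, none of which passed without Old replicate 4. Levels of 3 of them were low: Slc5a9 had 1.47 CPM in Young and 5.57 in Old, Slc2a6 0.291 and 0.871, and Slc2a9 1.09 and 2.52. Slc16a11 had 12.6 and 57.4 CPM, and Slc2a12 151 and 86.6 CPM. By group of genes, 3 of 10 other glucose facilitators, 2 of 10 other monocarboxylate transporter family members, 1 of 2 sodium-coupled transporters, 1 of 5 hexokinases and 1 of 13 genes of pyruvate entry passed. None of the 2 chaperones, 2 lactate dehydrogenases or 5 regulators of glucose transporters did. In Old-OSK against Old-Control, Old-OSK against Old and Old-Control against Old, 0 of 49 were called by edgeR, with medians of 0.04, 0.15 and 0.11. Without Old-Control replicate 2, 4 of 50 genes passed with higher and 10 with lower levels after OSK than in Old-Control, beside 6.25% and 11.6% of all genes. Without Old-OSK replicate 4, 1 of 48 was higher and 4 lower, beside 5.65% and 5.31%. DESeq2 over all libraries called 2 of 49 higher and 5 lower in Old-OSK against Old-Control, beside 6.03% and 3.69%. In Old-OSK against Old it called 1 higher, beside 1.39%. Ldha had log2 fold changes of 0.57 with age (SE 0.25, edgeR adjusted p = 0.141) and of 0.33 after OSK against Old-Control (SE 0.31, adjusted p = 0.544). Without Old replicate 4 the Ldha value for age was 0.34 (SE 0.26, edgeR adjusted p = 0.523). With the groups compared alone, Ldha was called higher in Old (0.59, SE 0.16, edgeR adjusted p = 0.0368), beside 6.83% of all genes. Without Old-Control replicate 2, Ldha was called higher in Old-OSK (1.05, SE 0.21, edgeR adjusted p = 0.00672), and without Old-Control replicate 1 or 3 it was at 0.05 and 0.09.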

How the data were processed

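Total RNA of mouse RPE was made into cDNA with SMART-Seq v4 and into libraries with Nextera XT, per the labels' protocols, a kit that does not mark strand. The deposited values are whole-number counts per gene, with no normalization. STAR 2.7.1a and featureCounts 1.6.2 are named in the submitters' processing notes, with human and mouse builds and no role for each. The annotation and the strand setting are not given in the sources used here. Samples were grouped by their titles.

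Genes were kept by filterByExpr (minimum count 10, minimum total 15), scaled by TMM and tested with edgeR 4.0.16 (quasi-likelihood test, R 4.3.3, limma 3.58.1) on all 18 libraries with 4 group means. P-values were adjusted by Benjamini-Hochberg over the 15944 genes tested, with a threshold of 0.05. The SE of a log2 fold change is its size divided by the root of the F statistic. DESeq2 1.42.0 and other settings were alternatives. Tests were checked on simulated data. No replicates were merged, since counts of any pair differed by a chi-square of at least 19.1 per gene. Same-numbered Old-OSK and Old-Control libraries deviated together over genes (r = 0.164, 0.501 and 0.187), so their numbers were treated as pairing them, although no label says so. Old-OSK replicate 1 deviated most like Old-Control replicate 3, not replicate 1. For replicates 2 and 3, the Old-Control library carries the letter M and the Old-OSK library does not. In the other comparisons some correlations were under 0.1.

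The members and lists were chosen with earlier results of these data known. Besides the members and the partners Ldha and Emb, up to 3 genes of the pathway lists with the lowest p in a comparison and the 3 genes most like the member of widest range were named.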

Additional observations from a re-analysis of the deposited data

Results flagged for a closer look

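Dixon's test over 24 gene and group combinations with 4 to 7 libraries singled out 3 libraries, where chance gives about 1 in 20. Slc16a3 was at 7.905 CPM in Young replicate 1, against 2.02 to 3.18 CPM in the other Young libraries. Slc5a8 was at 28.09 CPM in Young replicate 3, against 1.125 to 10.59 CPM in the others of that group. Ldhb was at 504.7 CPM in Old replicate 4, against 626.1 to 636.3 CPM in the other Old libraries. Old replicate 4 also had the lowest summed RPE markers of its group, 30180 CPM.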

How the results depend on the processing

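No member was called in any of the 4 comparisons with DESeq2, DESeq2 size factors in edgeR, no filter on low counts, a mean of at least 50 counts, robust moderation, the groups compared alone, the letter M or the rod score as a covariate, or the replicate block. Leaving out 1 library at a time gave 0 to 1 members called in Old against Young, 0 to 5 in Old-OSK against Old-Control and 0 to 2 in Old-OSK against Old. Alternatives chosen after seeing the data gave 5 called in Old-OSK against Old-Control and 5 in Old-OSK against Old without both Old replicate 4 and Old-Control replicate 2, and 4 in Old-OSK against Old-Control within libraries without M. In Old against Young, leaving out 1 library turned the sign for Slc16a12 (-0.618 to 0.0168) and Ldhb (-0.0176 to 0.0896, and 0.108 without both libraries that stood apart). In Old-OSK against Old-Control it turned the sign for Slc16a3 (-0.76 to 0.33) and Slc16a12 (-0.14 to 1.06). There, Slc16a3 was at 0.33 without both libraries, Slc16a12 at -0.15 with M as a covariate, and within libraries with M Slc16a3 was at 0.20, Slc16a12 at -0.79 and Slc5a8 at -0.39. In Old-Control against Old, leaving out 1 library turned the sign for Slc2a1 (-0.15 to 0.18), Slc16a1 (-0.43 to 0.31), Slc16a8 (-0.12 to 0.48), Slc16a12 (-0.805 to 0.42) and Bsg (-0.17 to 0.53). There, Slc2a1 was at 0.04 and Slc16a1 at 0.13 without both libraries, and at 0.17 and 0.56 within libraries without M. Slc16a8 was at -0.26 and Bsg at -0.019 with the replicate block, and on the same libraries without the block Slc16a8 was at -0.10 and Slc16a12 at 0.22, which was at 0.56 with M as a covariate. The causes were not tested. Of the pathway list, leaving out 1 library gave 1 to 8 called higher and 1 to 3 lower in Old against Young. Over all genes the shares were then 1.47% to 8.93% and 1.01% to 4.62%. The replicate block on 8 libraries gave 0, as over all genes. The same libraries without it gave 1 higher and 1 lower, beside 0.694% and 0.569%. The rod score as a covariate gave 1 and 1 (1.66% and 1.22% of all genes), and M as a covariate 2 and 2 (1.98% and 1.79%). DESeq2 gave 10 higher and 4 lower (9.38% and 6%), and the groups compared alone gave 7 and 4 (6.83% and 4.43%). In Old-OSK against Old-Control the replicate block gave 1 higher, beside 2.5% of all genes. Leaving out both libraries that stood apart gave 6 higher and 12 lower there, beside 9.32% and 14%. In the comparisons whose numbers do not pair the libraries, the block called 0 members. The low counts of Slc16a3, Slc16a12 and Slc5a8 limit their precision.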

Other observations

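Slc16a3 stayed a minor part of the lactate transporter transcripts. Per length, it made up 0.0551% ± 0.035 of the sum of Slc16a1, Slc16a3 and Slc16a8 in Young (SD, n = 7), 0.179% ± 0.12 in Old (n = 4), 0.463% ± 0.58 in Old-Control (n = 3) and 0.481% ± 0.31 in Old-OSK (n = 4). The highest share was 1.13%, in Old-Control replicate 2. Relative to the mean log2 CPM of the 12 RPE markers, Ldhb lay at -1.07 ± 0.12 in Young, -0.65 ± 0.05 in Old, -0.34 ± 0.10 in Old-Control and -0.42 ± 0.14 in Old-OSK, and the 7 Young libraries (-1.27 to -0.94) did not overlap the others. The share of all genes apart on this scale was not counted. In CPM, Ldhb had means of 592.1 in Young and 598.5 in Old, while the RPE markers had a median log2 fold change of -0.35. These are values with no test.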
